A study of Mus musculus with 5 samples.

Results

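Genes that mark neurons were read in RNA-seq libraries of cultured mouse brain cells. The set holds 38 genes, chosen by name for their place in neuronal structure, synapses, transmitter and peptide signaling, including dopamine synthesis, and each matched exactly 1 of the 20178 RefSeq transcripts in the tables. There were 5 libraries of ICR mouse cells at passage 2, 1 per condition and 0 replicate libraries, so no difference between conditions could be tested and no p-value is given. The Ctx NPC library came from neural progenitor cells of the cortex (Ctx) of embryos at embryonic day 12. The other 4 libraries are labelled astrocyte progenitor cells from pups at postnatal day 5, written here as astrocytes, of which 1 came from the cortex and 3 from the ventral midbrain (VM).

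The cortical cultures and the first VM culture have no entry for virus. The remaining VM cultures received lentivirus. In this study the vectors drive their insert from a CMV promoter, with the empty vector as mock control. The study's methods mark Nurr1 as mouse and Foxa2 as rat, yet in the same sentence call all inserts mouse genes. The labels of these libraries contradict each other. The titles, and the names inside the tables, end in C and NF, while the treatment entries give Nurr1 and Foxa2 viruses to the library titled C and the mock virus to the library titled NF. The titles are followed below, and with the treatment entries each difference between NF and C would change its sign. Foxa2, a forkhead factor of the midbrain floor plate, had 68 reads in untransduced VM astrocytes, 15 in C and 216 in NF. Nr4a2, which encodes the nuclear receptor Nurr1, had 81, 53 and 183 reads. Of the 3 VM libraries, the library titled NF therefore held the most reads of each transduced gene. Both genes were also read in VM astrocytes without virus. If the Foxa2 insert was rat, the loss of its reads in mapping to mouse was not measured.

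Neurons are built around a stable microtubule and neurofilament cytoskeleton, which carries vesicles along axons to synapses. At the synapse, vesicle proteins such as synapsins and synaptotagmins prepare and trigger release, transporters fill vesicles with glutamate, GABA or monoamines, and dense core granules hold peptides. Dopamine neurons of the ventral midbrain make dopamine through tyrosine hydroxylase and aromatic amino acid decarboxylase and depend on Nurr1 and Foxa2 during development. Astrocytes are not neurons, although cultures of glia can hold other cells, and several of the 38 genes are also read in glia.

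Promoter sequence is shown for 5 members, of which 4 share an element. RefSeq promoter windows (GRCm38.p6) were matched for 30 of the 38 genes. The cAMP response element, TGACGTCA, reads the same on both strands and is bound by CREB family factors. It was present in 15% of the members' windows and in 1.79% of all 32851 windows of the same length. The 6 genes that hold it were Chgb, Scg2, Slc18a2, Sst, Syn1 and Th. The 120 bases before the start site of 4 of them follow, in the direction of the gene, with the element in capitals. It begins 68, 72, 48 and 45 bases before the start site of Scg2, Chgb, Sst and Th.
Scg2 (chr1:79440027-79440146, minus strand): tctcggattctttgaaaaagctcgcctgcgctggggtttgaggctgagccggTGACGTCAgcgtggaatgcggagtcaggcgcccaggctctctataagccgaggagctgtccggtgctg
Chgb (chr2:132781522-132781641, plus strand): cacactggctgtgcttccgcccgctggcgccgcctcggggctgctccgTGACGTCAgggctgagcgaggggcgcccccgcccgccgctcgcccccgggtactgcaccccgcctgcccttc
Sst (chr16:23890845-23890964, minus strand): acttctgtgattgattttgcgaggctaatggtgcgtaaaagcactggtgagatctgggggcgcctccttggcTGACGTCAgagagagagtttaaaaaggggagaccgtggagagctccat
Th (chr7:142899996-142900115, minus strand): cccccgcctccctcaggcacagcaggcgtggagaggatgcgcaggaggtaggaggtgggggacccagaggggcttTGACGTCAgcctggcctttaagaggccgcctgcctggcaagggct

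The element that Nurr1 binds as a monomer, AAAGGTCA on either strand, was present in 1.51% of all windows and in 1 window of 1 member, Ddc. A further window of Ddc, chr11:11890359-11890658, does not hold it. In capitals below the element appears as TGACCTTT, on the opposite strand, where it shares bases with a TATA motif (TATAAA).
Ddc (chr11:11898145-11898264, minus strand): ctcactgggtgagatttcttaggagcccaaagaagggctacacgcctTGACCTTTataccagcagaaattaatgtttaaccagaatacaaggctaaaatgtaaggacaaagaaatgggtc
The forkhead motif TGTTTAC was found in 3.65% of all windows and in that of 1 member, Cck. Both arms of the element bound by the neuronal repressor REST were searched on either strand. Its left arm, TCAGCACC, was in the windows of Scg2, Syn1 and Tubb3 and in 1.65% of all windows, and its right arm, GGACAG, was in the windows of 13 members and in 22.2% of all. These are matches of letters, and binding was not measured.

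In each library, the level of a gene is given as the number of reads and as FPKM, the reads divided by transcript length and library total, which allows genes of different length to be compared. Library totals ran from 20010818 to 22554835 reads. An FPKM above 1 was taken as measured expression. In Ctx NPCs, 33 of the 38 neuronal genes were above it, against 58.2% of all transcripts. The count was 18 in Ctx astrocytes (59.2% of all transcripts), 15 in untransduced VM astrocytes (60.9%), 20 in C (60.4%) and 16 in NF (60.6%). The astrocyte libraries therefore held about as large a share of expressed transcripts as the NPC library while fewer of the neuronal genes were expressed in them. The median FPKM of the 38 genes was 4.26 in Ctx NPCs, 0.803 in Ctx astrocytes, 0.58 in untransduced VM astrocytes, 1.26 in C and 0.552 in NF.

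A gene with 3 reads or fewer was taken as not measurable. No member was that low in Ctx NPCs, against 6 in Ctx astrocytes, 8 in untransduced VM astrocytes, 6 in C and 7 in NF. The 5 genes that never passed FPKM 1 were Nefh, Th, Slc18a2, Slc6a3 and Cck. Among the 33 that did, the highest FPKM was in Ctx NPCs for 22 genes (43% of all transcripts above FPKM 1 in any library were highest there). It was in Ctx astrocytes for 5, namely Syn2, Slc17a7, Chgb, Thy1 and Dlg4 (16.1% of all), and in C for 5, namely Gap43, Nefl, Nefm, Npy and Scg2 (19% of all). Stmn2 alone was highest in untransduced VM astrocytes (9.96% of all), and no member was highest in NF (12% of all).

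Summed over the 38 genes, the reads per 1000000 reads of the library (CPM) came to 2104 in Ctx NPCs, 1806 in Ctx astrocytes, 1325 in untransduced VM astrocytes, 1125 in C and 1231 in NF. This sum rests on a few genes. Thy1 took 37.3% of the members' reads in Ctx astrocytes, and Stmn2 took 43.8% in untransduced VM astrocytes, 32% in C and 38.7% in NF. Without these genes, picked after their values were seen, the sum was 2035, 904, 596, 694 and 612 CPM in the order used above, so that C lay above the other VM libraries where it had lain below them.

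**Figure D1:**
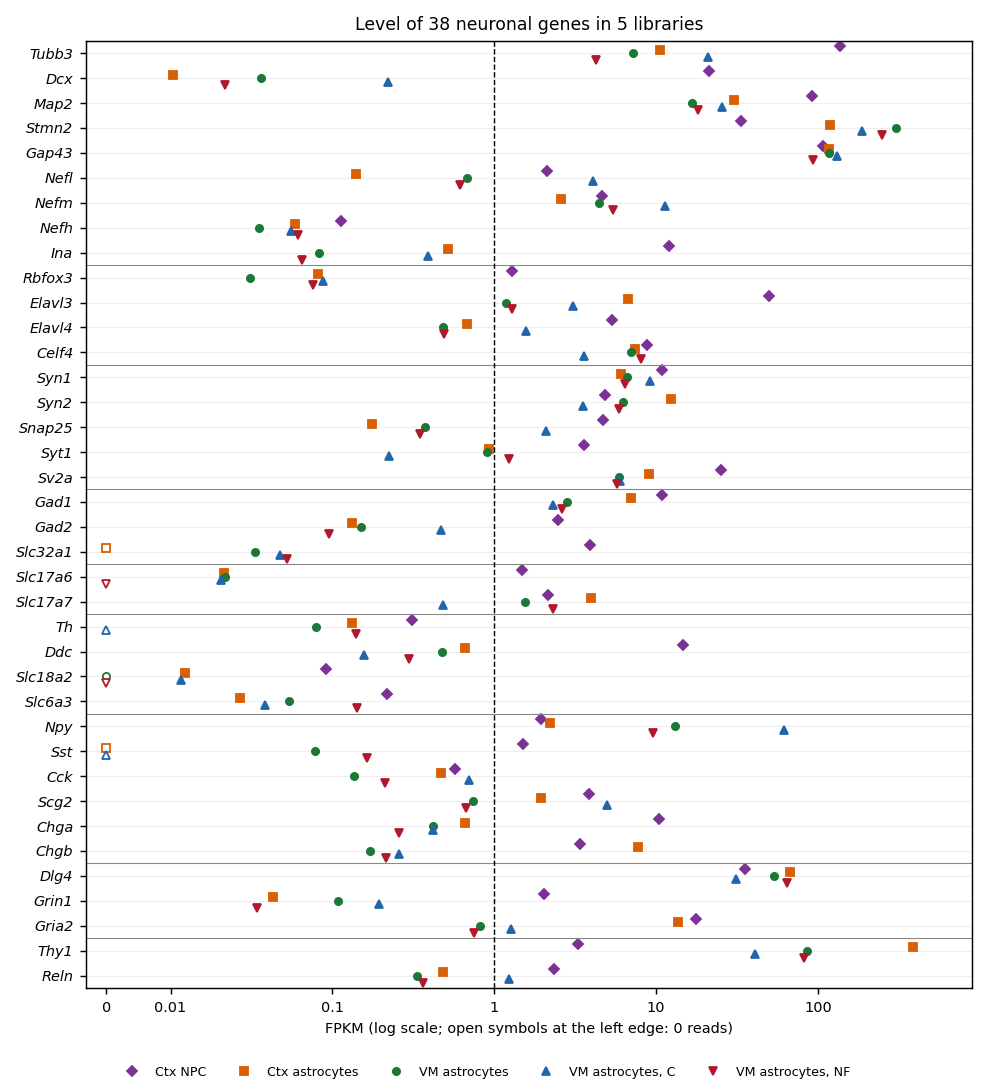
Level of each of the 38 neuronal genes in 5 libraries, in FPKM on a log axis, with 1 symbol per library and horizontal lines between groups of related function. The dashed line marks FPKM 1 and open symbols at the left edge stand for 0 reads. The NPC library (diamonds) lies to the right for most genes, and Thy1, Stmn2, Npy and Chgb are among the exceptions.

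Read counts below follow 1 order: Ctx NPCs, Ctx astrocytes, untransduced VM astrocytes, C, NF. The cytoskeletal genes came in strong and weak forms. Gap43, a growth cone protein, had 2808, 3264, 3243, 3877 and 2487 reads, 93.8 to 132 FPKM, and was the most even of the abundant members. Stmn2, a microtubule regulator of growing axons, had 1273, 4878, 12377, 8106 and 9697 reads, or 33.3 FPKM in Ctx NPCs and 304 FPKM in untransduced VM astrocytes. Stmn2 was thus higher in all 4 astrocyte libraries than in NPCs, and higher in the 3 VM libraries than in cortex.

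Map2, the microtubule protein of dendrites, had 10179, 3572, 1969, 3194 and 2045 reads and stayed above 16 FPKM throughout. Tubb3, the neuronal beta-tubulin, had 4735, 390, 265, 814 and 150 reads, or 137 FPKM in Ctx NPCs and 4.27 FPKM in NF. Dcx, the microtubule protein of migrating young neurons, had 3831, 2, 7, 45 and 4 reads. Dcx was the member with the widest range, being read at 21.1 FPKM in Ctx NPCs and no higher than 0.22 FPKM in any astrocyte library. Tubb3 did not follow it down to the limit of measurement, and Map2 even less.

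Neurofilaments give axons their caliber. Nefm had 299, 179, 304, 825 and 358 reads and Nefl had 85, 6, 29, 183 and 25, both with their highest value in C. Ina, the alpha-internexin of early neurons, had 545, 25, 4, 20 and 3 reads, and Nefh, of mature axons, had 9, 5, 3, 5 and 5. The medium subunit therefore exceeded the light subunit in every library, with an FPKM ratio of Nefm to Nefl of 2.18 in Ctx NPCs, 18.5 in Ctx astrocytes, 6.5 in untransduced VM astrocytes, 2.8 in C and 8.88 in NF. Nefl and Nefm are neighbours on chromosome 14, 30.4 kb apart in RefSeq. In the GENCODE annotation of GRCm38, 32.8% of the exon bases of Nefl and 19.2% of those of Nefm are shared with each other on opposite strands through a longer Nefm transcript, and whether reads were counted by strand is not given in the sources used here.

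Of the RNA-binding proteins that regulate neuronal splicing and mRNA stability, Elavl3 had 4988, 724, 127, 350 and 132 reads, and Elavl4 had 437, 60, 42, 145 and 41. Both were higher in C than in the other VM libraries. Rbfox3, which encodes the NeuN antigen of mature neurons, had 118, 8, 3, 9 and 7 reads and passed FPKM 1 only in Ctx NPCs, at 1.29. Celf4 had 711, 639, 599, 324 and 659 reads and was lowest in C.

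The vesicle and release genes were the group most widely read in astrocytes. Syn1, a synapsin that tethers vesicles, had 699, 418, 455, 664 and 424 reads, and Syn2 had 326, 891, 444, 266 and 405. Sv2a, a vesicle glycoprotein, had 1986, 758, 495, 531 and 458 reads. These 3 genes were above FPKM 3 in every library, while the proteins that carry out fusion were not. Snap25, a SNARE of the plasma membrane, had 201, 8, 17, 100 and 15 reads, and Syt1, the calcium sensor of release, had 343, 94, 91, 24 and 120. In C, Snap25 was the highest and Syt1 the lowest of the 3 VM libraries.

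Among the transmitter genes, Gad1 and Gad2 encode the enzymes that make GABA, and Slc32a1 encodes the transporter that loads it. Gad1 had 714, 491, 197, 172 and 176 reads, Gad2 had 281, 16, 18, 60 and 11, and Slc32a1 had 219, 0, 2, 3 and 3. Gad1 was therefore read in astrocytes, at 2.32 to 6.97 FPKM, with little Gad2 and a transporter at the limit of measurement. The FPKM ratio of Gad1 to Gad2 was 4.36 in Ctx NPCs and 52.7 in Ctx astrocytes, and in the VM libraries it was 18.8, 4.92 in C and 27.5 in NF. The glutamate transporters diverged as well. Slc17a7 (VGLUT1) had 127, 250, 97, 32 and 139 reads, and Slc17a6 (VGLUT2) had 128, 2, 2, 2 and 0.

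Dopamine genes were sparse everywhere. Th, the rate-limiting enzyme, had 11, 5, 3, 0 and 5 reads. Slc18a2, the vesicular monoamine transporter, had 7, 1, 0, 1 and 0, and Slc6a3, the dopamine reuptake transporter, had 15, 2, 4, 3 and 10. None of these 3 genes reached 0.4 FPKM in any library, the cortical NPCs included. Ddc, the decarboxylase shared with serotonin synthesis, was the exception, with 581, 28, 20, 7 and 12 reads, or 14.7 FPKM in Ctx NPCs and at most 0.663 FPKM elsewhere. With counts this low, intervals of ratios were wide. The exact interval of the ratio of NF to untransduced VM astrocytes ran from 0.34 to 11.2 for Th and from 0.755 to 11.4 for Slc6a3. For NF against C, Slc6a3 had an interval of 0.952 to 20.9. Th, with 5 reads in NF and 0 in C, had a lower limit of 1.02, so that among these ratios of Th, Slc18a2 and Slc6a3 between VM libraries that of Th alone excluded no difference, by counting error and narrowly.

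Peptide and granule genes showed the most mixed pattern. Npy, a neuropeptide, had 22, 27, 159, 793 and 110 reads, or 1.94 FPKM in Ctx NPCs and 61.9 FPKM in C. Scg2, a granin of dense core granules, had 192, 104, 39, 278 and 34 reads. Npy was thus the VM member of this group, and Scg2 was high in cortex and in C. The granin Chga had 399, 27, 17, 18 and 10 reads, and the related Chgb had 186, 454, 10, 16 and 12. Chgb was the granin of Ctx astrocytes, at 7.74 FPKM against 0.172 to 0.259 FPKM in the VM libraries. Sst had 18, 0, 1, 0 and 2 reads and Cck had 8, 7, 2, 11 and 3. The genes with the cAMP response element printed above, Scg2, Chgb, Sst and Th, thus had their highest read counts in C, Ctx astrocytes, Ctx NPCs and Ctx NPCs. Syn1 and Slc18a2, which also hold the element, were highest in Ctx NPCs, as were 22 of the 33 members above FPKM 1. Sst, Th and Slc18a2 had 18 reads or fewer in every library.

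At the postsynaptic side, Dlg4, the scaffold PSD-95, had 2358, 4796, 3818, 2345 and 4390 reads, 31.1 to 66.9 FPKM. Gria2, the AMPA receptor subunit that limits calcium entry, had 2429, 2004, 120, 197 and 105 reads. Gria2 separated the cortical libraries, at 13.6 FPKM or more, from the VM libraries, at 1.27 FPKM or less. Grin1, the obligatory NMDA receptor subunit, had 175, 4, 10, 19 and 3 reads, and the annotation places 13.5% of its exon bases in an antisense gene. Thy1, a surface glycoprotein also made by fibroblasts, had 114, 14451, 3156, 1597 and 2892 reads, or 388 FPKM in Ctx astrocytes. Reln, the secreted protein of Cajal-Retzius cells and interneurons, had 553, 121, 84, 329 and 87 reads.

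Ratios between libraries were taken on counts scaled to the library total, with 0.5 reads added for log2 values, and a gene was counted as higher or lower at 2-fold with FPKM above 1 in at least 1 of the 2 libraries. This filter admits a gene through its higher library, so the counts below describe these libraries and are read beside the same counts over all transcripts. Intervals of single ratios are exact 95% intervals (Clopper-Pearson) and cover counting error only, since PCR copies of reads are not independent molecules.

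Ctx NPCs and Ctx astrocytes are both labelled as cortex and differed in their cell label and in age, embryonic day 12 against postnatal day 5. Of 33 neuronal genes tested, 19 were higher and 4 lower in Ctx NPCs, 57.6% and 12.1% of them, against 20.1% higher and 17.9% lower of all transcripts. Their median log2 ratio was 1.96, against 0.19 over all transcripts, and 1.79 over all 38 genes without the filter. With FPKM above 1 required in both libraries, which leaves out genes low in astrocytes, 4 were higher and 4 lower, and the median was 0.315. Replacing library totals by edgeR's TMM, DESeq2's size factors or upper-quartile scaling shifted the median of all transcripts by -0.185, -0.177 and -0.167. Under each of the 3 the count higher stayed at 19 and the count lower went from 4 to 6.

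The largest ratio in favor of Ctx NPCs was that of Dcx, at 2050-fold higher in Ctx NPCs with an interval of 568 to 16900, set by 2 reads in Ctx astrocytes. Slc32a1 had 0 reads there and was at least 78.2-fold higher, computed against 3 reads in that library, and Sst was at least 6.43-fold higher by the same bound. The glutamate transporter Slc17a6 was 68.6-fold higher (18.6 to 572) and Grin1 46.9-fold higher (18 to 174). Among genes higher in Ctx NPCs, the widest differences were thus in genes with 4 reads or fewer in Ctx astrocytes. Well-read genes had narrower intervals, 13-fold for Tubb3 (11.7 to 14.5), 7.38-fold for Elavl3 (6.83 to 7.99) and 3.05-fold for Map2 (2.94 to 3.17). Further genes higher in Ctx NPCs were Snap25 (26.9-fold), Ina (23.4), Ddc (22.2), Gad2 (18.8), Rbfox3 and Chga (15.8 each), Nefl (15.2), Elavl4 (7.8), Reln (4.9), Syt1 (3.91) and Sv2a (2.81).

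In the opposite direction, Thy1 was 118-fold higher in Ctx astrocytes (98.4 to 144), Stmn2 3.58-fold (3.36 to 3.81), Syn2 2.55-fold (2.24 to 2.91) and Chgb 2.28-fold (1.92 to 2.72). Dlg4 was 1.9-fold higher in Ctx astrocytes and Scg2 1.98-fold higher in Ctx NPCs, both just outside the threshold, with Chgb just inside it. Gap43, Celf4, Gria2 and Gad1 differed by less than 1.6-fold in either direction. Members of 1 functional class therefore stood on both sides, Syn2 apart from Syt1 and Snap25, and Chgb apart from Chga.

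**Figure D2:**
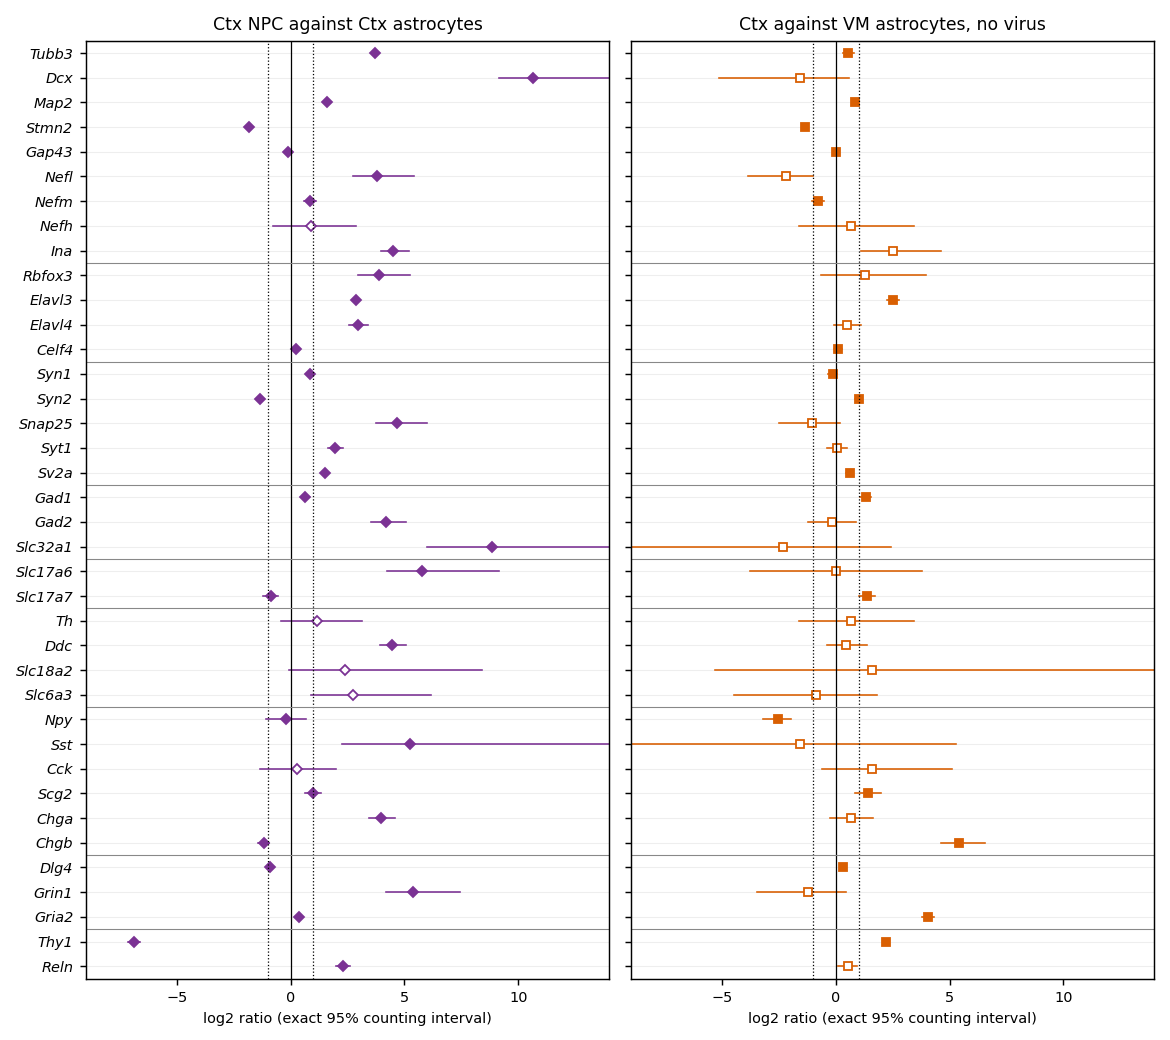
Log2 ratio of each of the 38 genes in Ctx NPCs against Ctx astrocytes (left) and in Ctx against untransduced VM astrocytes (right), with exact 95% counting intervals drawn to the edge of the axis where they run past it. Filled symbols passed FPKM 1 in either library, and dotted lines mark 2-fold. On the left 19 filled symbols lie beyond 2-fold to the right and 4 to the left, and on the right 7 and 2.

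Other neuronal genes, from 8 lists that hold none of the 38, were read in the same way. Their counts stand beside 20.1% higher and 17.9% lower of all transcripts in Ctx NPCs against Ctx astrocytes. Of 20 proneural and neuronal transcription factors tested, 17 were higher in Ctx NPCs and 0 lower, with a median log2 ratio of 3.84. Scrt1, Tbr1, Dlx5 and Neurod2, factors of cortical neurons and interneurons, had 402, 312, 267 and 213 reads in the NPC library and 0 in that of Ctx astrocytes. Of 21 release genes, 12 were higher and 1 lower, led by Sv2c (517 against 2 reads), Rab3c (240 against 1), Cplx1 (684 against 4) and Bsn (805 against 14). Among 24 genes of neuronal microtubules, axons and adhesion, 14 were higher and 2 lower, with 33451 against 1201 reads of Tubb4a. In these 3 lists most of the tested genes were higher in Ctx NPCs, as among the 38 genes.

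Receptors and scaffolds had 7 higher and 3 lower of 17, and ion channels 3 higher and 4 lower of 11. Kcna1, a potassium channel of axons, had 45 against 834 reads. Peptide genes were divided evenly, 5 higher and 5 lower of 10, with Vgf at 501 against 3982 reads and Nts at 77 against 3. Of 10 genes for other transmitters 2 were higher and 4 lower, and Maob, which breaks down monoamines, had 32 against 500 reads. Of 9 dopamine neuron factors and receptors 4 were higher and 4 lower. Otx2 had 193 against 0 reads and En2 232 against 7, while Aldh1a1 had 16 against 1969 and Ret 23 against 231.

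Marker genes of other cells also differed between these libraries. Summed over 6 genes of mature oligodendrocytes, the Ctx NPC library had 7028 CPM and the Ctx astrocyte library 305, and over 5 genes of oligodendrocyte precursors they had 2294 and 479. The 8 astrocyte markers summed to 10432 CPM in Ctx NPCs and 4097 in Ctx astrocytes, and the 8 neural progenitor markers to 6653 and 9426. The progenitor sum rests mainly on Vim, at 3443 and 7704 CPM, whereas 6 of the 8 genes were above their Ctx astrocyte level in Ctx NPCs. Past 2-fold, 2 progenitor markers were higher in Ctx NPCs and 1 was lower. The library labelled neural progenitor cells therefore held markers of differentiated glia and of neurons. The 7 fibroblast and mural markers summed to 414 and 1466 CPM, the 7 microglial markers to 1.25 and 38.1, the 4 ependymal markers to 136 and 484 and the 5 proliferation markers to 300.2 and 84.4. How far these cells or others carry the neuronal genes was not tested, and in such bulk RNA fewer cells of a type cannot be told apart from less RNA per cell.

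**Figure D3:**
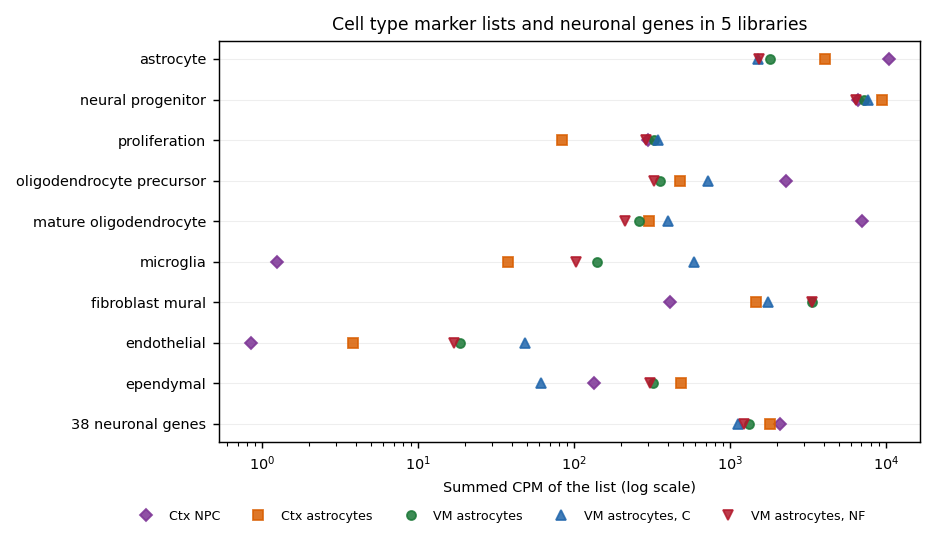
Summed CPM of 9 marker lists and of the 38 neuronal genes in 5 libraries, on a log axis with 1 symbol per library. Mature oligodendrocyte markers were highest in Ctx NPCs at 7028 CPM, and microglial markers ran from 1.25 CPM in Ctx NPCs to 592 in C, while the 38 neuronal genes together lay between 1125 and 2104 CPM.

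Ctx and untransduced VM astrocytes differ in their label for region of origin. With 1 library of each, the region cannot be told apart from a property of the culture. Of 18 neuronal genes tested, 7 were higher and 2 lower in cortex, 38.9% and 11.1% of them, against 4.49% higher and 9.89% lower of all transcripts. The median log2 ratio was 0.73, against -0.05 over all transcripts, and 0.51 over all 38 genes. With FPKM above 1 required in both libraries, 4 were higher and 2 lower. Chgb had the largest ratio, 45.1-fold higher in cortex (24.3 to 94.7), followed by Gria2, 16.6-fold higher (13.8 to 20.1). Elavl3 was 5.67-fold (4.69 to 6.9) and Thy1 4.55-fold higher (4.38 to 4.73). Scg2 at 2.65-fold (1.82 to 3.93), Slc17a7 at 2.56-fold (2.02 to 3.27) and Gad1 at 2.48-fold (2.1 to 2.94) completed the genes higher in cortex.

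Npy was 5.93-fold higher (3.92 to 9.27) and Stmn2 2.55-fold higher (2.47 to 2.64) in VM astrocytes. Gap43 did not differ beyond 1.05-fold either way by its interval, and Syn1, Celf4 and Dlg4 differed by less than 1.3-fold. The 7 genes higher in cortex were granins, a receptor subunit, transmitter genes, an RNA-binding protein and the surface protein Thy1. Syn2 was 1.99-fold higher in cortex and fell just outside the threshold, while Gad1 and Slc17a7 were inside it.

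The other neuronal lists are read beside 4.49% higher and 9.89% lower of all transcripts in cortex. Among these lists, ion channels had 3 of 8 tested higher in cortex and 0 lower, with Kcnc1 at 320 against 29 reads and Kcna1 at 834 against 102. Axon and adhesion genes had 4 higher and 0 lower of 22, Cntn1 among them with 1891 against 597 reads. Release genes had 0 higher and 2 lower of 14, Syt4 with 70 against 414 reads and Cplx2 with 444 against 944. Receptors and scaffolds had 3 higher and 2 lower of 13, peptide genes 2 and 2 of 9, other transmitters 1 and 1 of 9, and transcription factors 2 and 0 of 7. Dopamine neuron factors had 4 higher and 5 lower of 11, and the midbrain factors Otx2 (0 against 416 reads), Foxa1 (3 against 267) and En2 (7 against 514) were lower in cortex. Fibroblast and mural markers summed to 1466 CPM in cortex and 3367 in VM, microglial markers to 38.1 and 142, and astrocyte markers to 4097 and 1806. The 5 proliferation markers summed to 84.4 and 328 CPM, and all 5 were lower in cortex past 2-fold. Mature oligodendrocyte markers summed to 305 and 263 CPM, with 0 higher and 3 lower in cortex past 2-fold. The part of these markers in the differences of neuronal genes was not tested.

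The VM libraries differ in their labels for virus. With 1 library each, an effect of virus or of the factors cannot be told apart from a property of the culture. Comparisons among the VM libraries share libraries, so they are not independent of each other. Among 22 neuronal genes with FPKM above 1 in any VM library, C was the highest of the 3 libraries for 14, where it was highest for 42.6% of all transcripts, and the lowest for the other 8, where it was lowest for 43.1%. C was therefore the outermost library for each of the 22 genes. By both shares just given it was also outermost for most of all transcripts, so this position is not particular to the neuronal genes. The genes highest in C were Elavl3, Elavl4, Gap43, Gria2, Map2, Nefl, Nefm, Npy, Reln, Scg2, Snap25, Sv2a, Syn1 and Tubb3. Those lowest in C were Celf4, Dlg4, Gad1, Slc17a7, Stmn2, Syn2, Syt1 and Thy1. For Gap43, Sv2a and Gad1 the difference to untransduced VM astrocytes was below 1.25-fold.

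Against untransduced VM astrocytes, C was higher in 9 and lower in 2 of 21 neuronal genes tested, 42.9% and 9.52% of them, where 7.3% of all transcripts were higher and 8.48% lower. The median log2 ratio was 0.61, against -0.01 over all transcripts, and 0.58 over all 38 genes. With FPKM above 1 required in both libraries, 4 were higher and 1 lower, and the median was 0.097. Scg2 was 6.73-fold higher (4.8 to 9.67), Nefl 5.96-fold (4.01 to 9.15), Snap25 5.56-fold (3.3 to 9.91) and Npy 4.71-fold (3.97 to 5.62). These are a granin, a neurofilament, a SNARE and a neuropeptide. Scg2 and Npy were the 2 of 6 peptide and granule genes that passed the filter. Reln was 3.7-fold (2.9 to 4.76), Elavl4 3.26-fold (2.3 to 4.71), Tubb3 2.9-fold (2.52 to 3.35), Elavl3 2.6-fold (2.12 to 3.21) and Nefm 2.56-fold higher (2.24 to 2.93).

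Slc17a7 was 3.21-fold lower in C than in untransduced VM astrocytes (2.13 to 4.95) and Thy1 2.09-fold lower (1.97 to 2.22). Some ratios past 2-fold rested on genes under FPKM 1 in both libraries and were not counted. Dcx was 6.07-fold higher in C (2.72 to 16), Ina 4.72-fold (1.58 to 19) and Gad2 3.15-fold higher (1.83 to 5.67), whereas Syt1 was 4.01-fold lower (2.54 to 6.58). Celf4 at 1.96-fold lower stood just outside the threshold and Thy1 just inside it.

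Against the same untransduced library, NF had 0 genes higher and 0 lower of 16 tested, where 0.322% of all transcripts were higher and 0.668% lower. The median log2 ratio of the neuronal genes was -0.04, and 0.013 with TMM, against -0.05 over all transcripts. With neither a filter nor a minimum level, 2 of the 38 genes were past 2-fold in each direction. The intervals bound what these libraries could show. For Map2 the ratio of NF to untransduced VM astrocytes was 1.09 (1.02 to 1.16), for Syn1 0.976 (0.853 to 1.12), for Npy 0.725 (0.563 to 0.93) and for Stmn2 0.821 (0.799 to 0.843). Syn1 thus lay within counting error of no difference, and Npy and Stmn2 lay below it. Among the genes tested, Tubb3 had the lowest ratio, 0.593 (0.482 to 0.727), and Slc17a7 the highest, 1.5 (1.15 to 1.97). Both fell short of 2-fold, with intervals that exclude no difference by counting error. For Ddc the ratio was 0.628 (0.28 to 1.35), and with those of Th and Slc6a3 given above its interval spanned 1, while Slc18a2 had 0 reads in both libraries. Foxa2 and Nr4a2 reads were higher in NF, by 1.73 (1.33 to 2.15) and 1.24 (0.86 to 1.64) on the log2 scale.

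**Figure D4:**
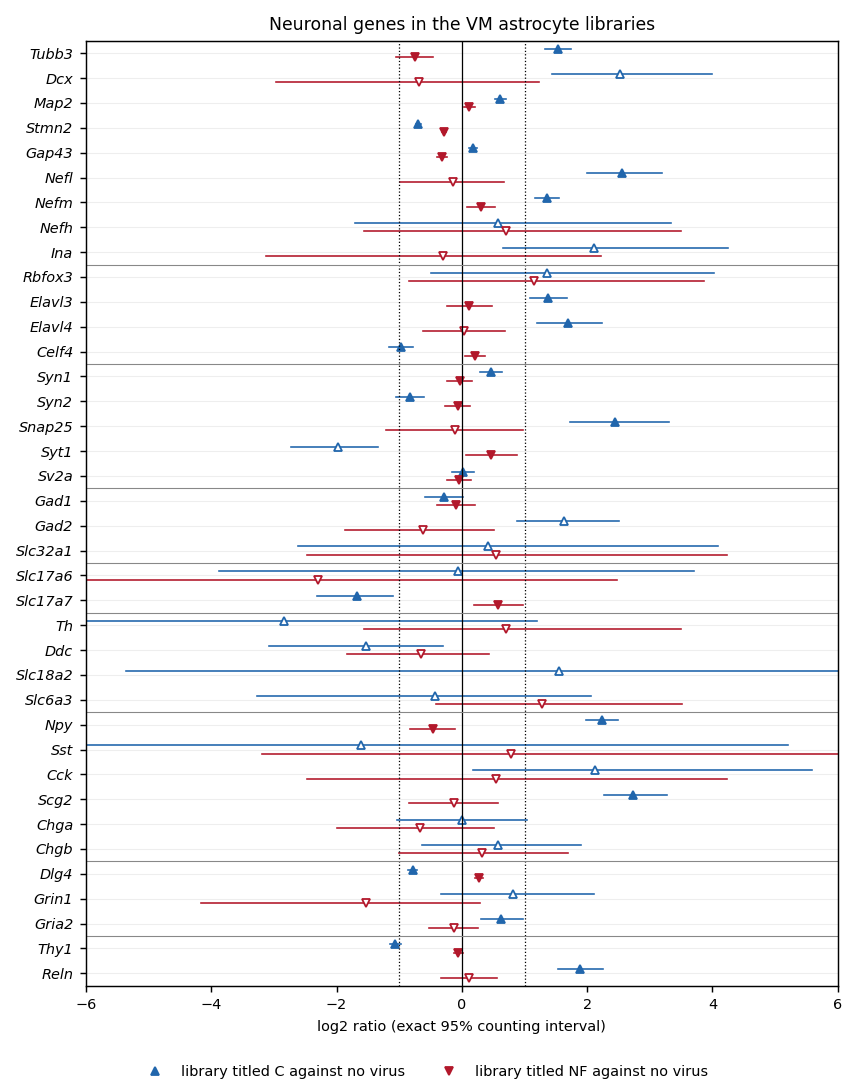
Log2 ratio of each of the 38 genes in C and in NF against untransduced VM astrocytes, with exact 95% counting intervals drawn to the edge of the axis where they run past it. Filled symbols passed FPKM 1 in either library, and dotted lines mark 2-fold. Filled symbols of C lie beyond 2-fold for 9 genes to the right and 2 to the left, those of NF for none, and both series share the untransduced library.

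Between the transduced libraries themselves, NF was higher than C in 5 and lower in 9 of 22 neuronal genes tested, 22.7% and 40.9% of them, where 9.53% of all transcripts were higher and 9.73% lower. The median log2 ratio was -0.50, against -0.02 over all transcripts. With FPKM above 1 required in both libraries, 3 were higher and 4 lower. With the treatment entries in place of the titles, the counts were 9 higher and 5 lower. Scg2 was 7.37-fold lower in NF (5.15 to 10.9), Nefl 6.6-fold (4.33 to 10.5), Npy 6.5-fold (5.32 to 8.01), Snap25 6.01-fold (3.48 to 11.1) and Tubb3 4.89-fold lower (4.11 to 5.86). The remaining genes lower in NF were Reln (3.41-fold), Elavl4 (3.19), Elavl3 (2.39) and Nefm (2.08). Syt1 was 5.54-fold (3.56 to 8.99) and Slc17a7 4.82-fold higher in NF (3.26 to 7.31), followed by Celf4 (2.26-fold), Dlg4 (2.08) and Thy1 (2.01). Each of these 14 genes has its untransduced value nearer to NF than to C in the read counts given above.

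The lists of other neuronal genes held differences of C in both directions, beside 7.3% higher and 8.48% lower of all transcripts. Against untransduced VM astrocytes, C had 4 higher and 1 lower of 21 axon and adhesion genes, Kif5a, a motor of axonal transport, with 1342 against 322 reads and L1cam with 241 against 75. Release genes had 2 higher and 2 lower of 15, and Syt4, a synaptotagmin of dense core vesicles, had 4871 against 414 reads and 373 in NF. Peptide genes had 3 higher and 1 lower of 9, with Penk at 899 against 251 and Vgf at 8170 against 2698 reads.

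Ion channels had 2 higher and 1 lower of 6, with Kcna1 at 468 against 102 and Scn3b at 441 against 1211 reads. Of the other transmitter genes 0 were higher and 2 lower of 9, Ache with 151 against 415 reads and Maob with 215 against 472. Receptors and scaffolds had 1 higher and 1 lower of 12. Dopamine neuron factors and receptors had 1 higher and 4 lower of 10, with Ret, the GDNF receptor, at 2332 against 405 reads, and Otx2 at 41 against 416. Proneural and neuronal transcription factors had 0 higher and 1 lower of 7, Dlx2, with 76 against 192 reads. With 7.3% of all transcripts higher in C, a count of 0 among 7 lies near the background.

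In NF against untransduced VM astrocytes, 6 of the 8 lists had 0 genes past 2-fold, among 13 release, 20 axon and adhesion, 11 receptor, 4 ion channel and 9 other transmitter genes and 6 transcription factors tested. Of all transcripts, 0.322% were higher and 0.668% lower in this comparison. Nts was lower, with 10 against 31 reads, and Foxa2 and Nr4a2 were the 2 of 11 dopamine neuron factors and receptors that were higher. Against C, NF had 6 higher and 1 lower of 11 dopamine neuron factors and receptors, with Otx2 at 498 against 41, Foxa1 at 252 against 47 and Lmx1b at 29 against 5 reads. These midbrain factors stood in NF close to their untransduced reads of 416 for Otx2 and 267 for Foxa1. Axon and adhesion genes had 1 higher and 5 lower of 21, peptide genes 0 and 3 of 7, release genes 1 and 2 of 15, receptors 1 and 1 of 11, ion channels 1 and 2 of 6, other transmitters 2 and 1 of 9, and transcription factors 1 and 0 of 8. These counts stand beside 9.53% higher and 9.73% lower of all transcripts in NF against C.

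Markers of other cells moved with C as well. The 7 microglial markers summed to 142 CPM in untransduced VM astrocytes, 592 in C and 103 in NF, and none of them was at 0 in any VM library. The 5 oligodendrocyte precursor markers summed to 356, 726 and 325 CPM and the 6 mature oligodendrocyte markers to 263, 400 and 213. The 7 fibroblast and mural markers summed to 3367, 1773 and 3366 CPM and the 4 ependymal markers to 324, 62 and 308. By the sign of the ratio to untransduced VM astrocytes, 3 of the fibroblast and mural markers were higher in C and 4 lower. The higher ones were Dcn, Lum and Pdgfrb. Past 2-fold with the filter, 0 of this list were higher and 3 lower. Of the mature oligodendrocyte markers, 5 were higher in C by sign and 1, Cnp, was lower. Past 2-fold with the filter, 4 of them were higher and 0 lower. The 8 astrocyte markers summed to 1806, 1524 and 1535 CPM, and the 8 progenitor markers to 7269, 7698 and 6438, with Hes5 at 0 in C. The 3 endothelial markers summed to 18.8, 48.7 and 17.1 CPM, with Cldn5 at 0 in untransduced VM astrocytes and NF, and the 5 proliferation markers to 328, 349 and 292. C thus differed from both other VM libraries in the sums of oligodendrocyte, microglial and ependymal markers, while its astrocyte sum lay close to that of NF. The comparisons are those in which C differed in neuronal genes, and the part of these markers in that difference was not tested. An effect of the virus and a property of this culture cannot be told apart with 1 library.

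**Figure D5:**
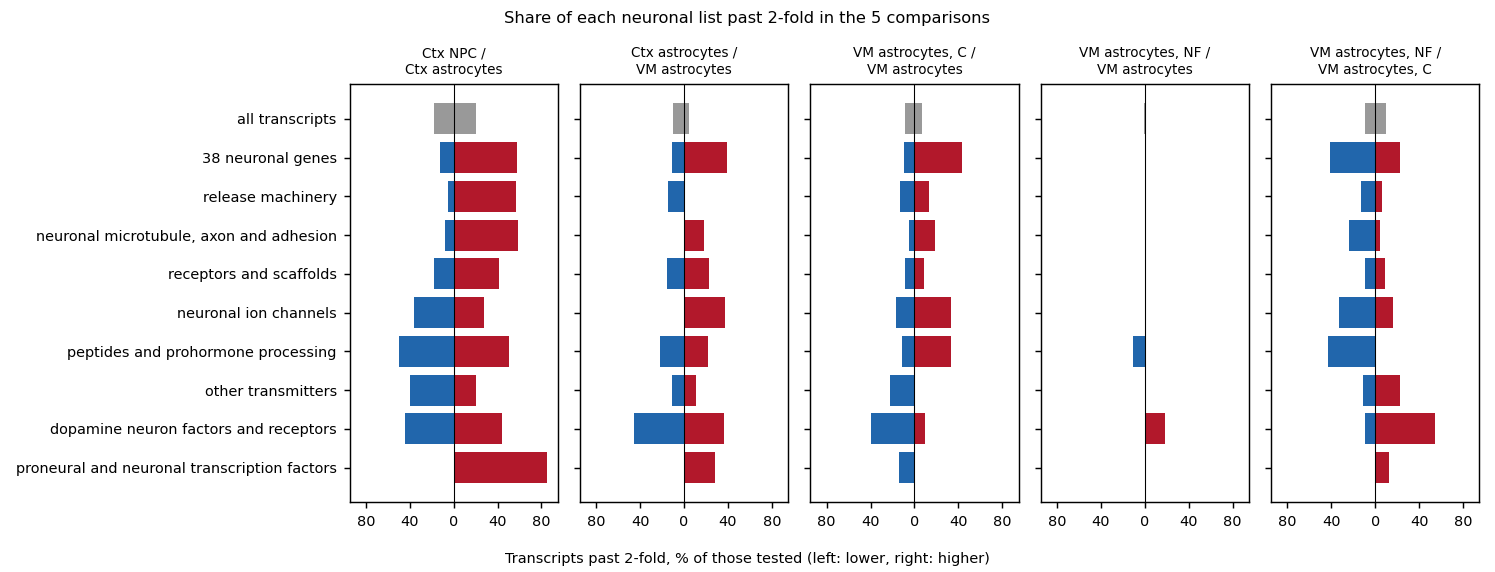
Share of the tested genes past 2-fold in each of 5 comparisons, lower to the left and higher to the right, in percent, for all transcripts (grey), the 38 neuronal genes and 8 further neuronal lists. The 38 genes had 57.6% higher in Ctx NPCs against Ctx astrocytes and 0% in either direction in NF against untransduced VM astrocytes. Each panel shares a library with another panel.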

How the data were processed

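RNA-seq tables of 5 libraries were read. Per the study's methods, the authors trimmed reads at a quality of 20, aligned them by STAR to the GRCm38/mm10 build and used HTSeq-count to assign them to RefSeq exons. The submitters' processing notes name mm9, bcl2fastq 1.8.4 and DESeq instead or in addition. The deposited values are raw read counts per transcript, without normalization, and the FPKM that the authors calculated from them. A symbol was found for 20093 of 20178 transcripts. Counts were scaled to library totals. Members were printed with all 5 read counts, and of each other list at most 4 genes with the largest ratio past 2-fold were eligible to be named, and some eligible genes are not reported here. The members and lists were chosen with earlier results of these data known. The gene lists for other transmitters and ion channels were read for 19 of 20 and 17 of 18 genes. Alternatives were TMM, DESeq2 and upper-quartile scaling, 5 reads added, other filters, a 2.6-fold cutoff and the treatment entries. The ratio calculations were tested on simulated counts. Python 3.11.15, numpy 2.4.6, pandas 2.3.3, scipy 1.17.1, matplotlib 3.10.9, edgeR 4.0.16 and DESeq2 1.42.0 (R 4.3.3) served for this.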

Additional observations from a re-analysis of the deposited data

How the results depend on the processing

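No paired analysis was possible because there is 1 library per condition. The counts of neuronal genes past 2-fold stayed within 1.5 times of the reported ones, in each of the 5 comparisons, under TMM, DESeq2's size factors, upper-quartile scaling, 5 reads added and the requirement that the counting interval lie beyond 1-fold. Of 57 named ratios, 0 changed sign under the 3 scalings and 5 reads added. Requiring FPKM above 1 in both libraries, which by construction drops genes that are low in either, left 4 higher and a median log2 ratio of 0.315 in Ctx NPCs against Ctx astrocytes, 4 higher in Ctx against VM astrocytes, 4 higher and 1 lower in C against untransduced VM astrocytes, and 3 higher and 4 lower in NF against C. With no filter, which by construction adds genes of few reads, the counts were 11 higher and 8 lower in Ctx against VM astrocytes, 15 and 6 in C, 2 and 2 in NF, and 8 and 16 in NF against C. A 2.6-fold cutoff left 2 lower in Ctx NPCs, 1 lower in Ctx astrocytes against VM, 1 lower in C and 2 higher in NF against C. With the treatment entries the libraries exchange places, so the mock library had 0 higher and 0 lower against untransduced VM astrocytes, the Nurr1 and Foxa2 library had 9 and 2 with a median of 0.615, and the latter had 9 higher and 5 lower than the former. Depth limits Th, Slc18a2, Slc6a3, Slc17a6, Slc32a1, Sst, Rbfox3 and Nefh, whose VM counts were 10 reads or fewer.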
